A study of Mus musculus with 2 samples.

Results

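The 39 Hox genes of the mouse were followed across the cell types of the long bone periosteum. They were taken as every feature whose symbol is Hox followed by a, b, c or d and a number, and they make up 39 of the 32288 features counted. The 9 antisense or noncoding genes named after Hox genes were left out of the members. The members lie in 4 clusters: 11 Hoxa genes at chr6:52155590-52260880, 10 Hoxb genes at chr11:96194316-96368256, 9 Hoxc genes at chr15:102921103-103036852, and 9 Hoxd genes at chr2:74668310-74765142 (GRCm38, GENCODE M21). Of the 39 genes, 38 had at least 1 unique molecular identifier (UMI, 1 counted RNA molecule) in the barcodes kept, and Hoxd12 had none. The 24 genes with at least 20 UMIs carry the descriptions below. The 14 others held 1 to 19 UMIs each, led by Hoxa6 with 18, Hoxb7 with 14, and Hoxa2 and Hoxc13 with 12 each, and the lowest were Hoxd1 and Hoxd3 with 1 each.

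Hox genes encode transcription factors that bind DNA through a homeodomain and set the identity of body segments along the head-to-tail axis. Genes with the same number in the 4 clusters are paralogs, and low numbers are used toward the head and high numbers toward the tail and the ends of the limbs. Adult connective tissue keeps a regional Hox pattern laid down in the embryo, and blood progenitors use Hoxa and Hoxb genes while they divide and shut most of them off as they mature. In the limb, groups 9 and 10 act in the upper segment, group 11 in the middle segment, and group 13 in the foot or hand.

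Periosteal cells were peeled from femurs and tibias of wild-type C57BL6 mice 4 weeks of age, digested with collagenase, and sorted by staining for CD45, CD31, Ter-119 and DAPI to remove blood, endothelial and dead cells. The 2 libraries, replicates 1 and 2, are a single untreated group, so the comparisons here are between cell types inside the same libraries. The number of mice in each library is not given in the sources used here, and p-values therefore measure the spread between these libraries, which may be technical. Femur and tibia were pooled, so a difference in Hox use between the upper and lower leg cannot be told apart from a difference between cells.

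Library 1 gave 6276 kept barcodes of 9932 (92058894 UMIs, median 8164 per barcode) and library 2 gave 2893 of 3659 (30745895 UMIs, median 6279). Only 7 of the kept barcodes carried the same sequence in both libraries. Blood cells remained in spite of the sort and made up 92.9% and 61.1% of the kept barcodes, and 50.7% and 43.4% of them carried a UMI of Ptprc, the gene for CD45. The stromal classes held 357 and 937 barcodes. Reporter transcripts went against a plain wild-type label. EGFP was at 0 in library 1, while in library 2 it gave 5030 UMIs in 133 of 937 stromal barcodes, and tdTomato was found in 93 of 357 and 386 of 937 stromal barcodes. Blood barcodes held tdTomato as well, in 922 of 5831 and 377 of 1769, while EGFP was in 4 of 1769 in library 2. The part of these reporters, or of a different mouse line behind library 2, in the values below was not tested, and each value is given for each library.

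Cells were clustered without the Hox genes and named from marker lists, and a name ending in "-like" states only that those markers were present. Stroma stands for the fibroblast-like, tenocyte-like, Lepr+ stromal-like, osteogenic progenitor-like, osteoblast-like, chondrocyte-like and smooth muscle-like classes. Levels are in CPM, the standard unit in which a count is divided by the library total, here all UMIs of the cells that were summed. The kit reads the 3′ end of each transcript, so CPM is not per length and levels were compared between cell types for the same gene, while shares of UMIs between genes describe counted molecules. Intervals in brackets are exact 95% intervals and cover counting error only.

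Summed over both libraries, Hoxb2 with 700 UMIs, Hoxa10 with 691 and Hoxc10 with 586 were the most counted Hox genes of the stroma, and Hoxa9 with 429, Hoxb4 with 342 and Hoxa7 with 240 those of blood. The order differed between libraries. In stroma it was Hoxb2 (292), Hoxa10 (195), Hoxc9 (189) and Hoxc10 (177) in library 1 and Hoxa10 (496), Hoxc10 (409), Hoxb2 (408) and Hoxc9 (324) in library 2, and in blood Hoxb4 was above Hoxa7 in library 1 (307 and 184) and below it in library 2 (35 and 56). The homeoboxes of the 3 genes with the highest stromal sums are shown because they hold 2 paralogs, Hoxa10 and Hoxc10, from different clusters beside a gene of another group. Each is 180 bases long, lies in exon 2 of 2, and is read 5′ to 3′ on the coding strand of GRCm38. Capitals mark codons of the helix that lies in the major groove of DNA, by which the box was located.
Hoxb2, chr11:96352985-96353164, plus strand: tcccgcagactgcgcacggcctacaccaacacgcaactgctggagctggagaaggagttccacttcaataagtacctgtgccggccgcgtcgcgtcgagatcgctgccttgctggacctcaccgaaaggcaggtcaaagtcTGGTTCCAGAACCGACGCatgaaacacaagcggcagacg
Hoxa10, chr6:52232554-52232733, minus strand: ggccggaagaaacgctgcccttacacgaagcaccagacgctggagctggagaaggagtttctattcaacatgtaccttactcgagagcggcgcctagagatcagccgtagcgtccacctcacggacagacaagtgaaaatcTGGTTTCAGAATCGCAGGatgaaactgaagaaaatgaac
Hoxc10, chr15:102970848-102971027, plus strand: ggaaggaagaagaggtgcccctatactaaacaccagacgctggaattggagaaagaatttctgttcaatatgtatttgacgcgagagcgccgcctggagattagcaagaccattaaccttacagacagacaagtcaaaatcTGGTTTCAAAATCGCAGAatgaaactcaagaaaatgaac
The group 10 paralogs Hoxa10 and Hoxc10 shared 80.6% of these bases, while Hoxb2 shared 62.2% with Hoxa10 and 57.8% with Hoxc10.

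Stromal cells carried many more Hox UMIs than blood cells at equal totals and drew on other clusters. The summed level of the 39 genes was 292 CPM [278 to 307] and 240 CPM [232 to 249] in the stroma of libraries 1 and 2, against 12.1 CPM [11.4 to 12.9] and 12.5 CPM [10.8 to 14.3] in blood. Hoxa and Hoxc shared most of the stromal UMIs: Hoxa took 35.8% and 39.6%, Hoxc 38.0% and 37.7%, Hoxb 23.2% and 15.6%, and Hoxd 2.99% and 7.12%. In blood Hoxa took 63.7% and 75.0% and Hoxb 34.5% and 21.1%, and Hoxc and Hoxd together left 16 and 2 UMIs of 1045 in library 1 and 4 and 4 of 204 in library 2. Hoxc was thus a large part of the Hox molecules of stroma and a very small part of those of blood in both libraries.

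Paralog group use differed in the same way. Groups 9 to 13 gave 48.6% and 60.2% of stromal Hox UMIs and groups 1 to 3 gave 22.1% and 16.0%, whereas groups 4 to 8 led in blood with 53.4% and 50.5%. Group 10 was the largest in stroma (23.7% and 31.6%), followed by group 9 (19.97% and 19.6%) and group 2 (18.9% and 13.97%). In blood the largest were group 9 (34.8% and 36.8%), group 4 (31.6% and 19.6%) and group 7 (17.6% and 27.9%), each carried almost wholly by 1 gene, Hoxa9, Hoxb4 and Hoxa7. Group 13, the foot and hand group, gave 0.636% and 1.60% of the stromal UMIs, and group 12 gave 1 and 2 UMIs.

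At least 1 Hox UMI was seen in 76.8% [72.0 to 81.0] and 78.7% [75.9 to 81.2] of stromal barcodes and in 10.6% [9.84 to 11.4] and 7.52% [6.33 to 8.85] of blood barcodes, with median depths of 10190 and 9499 UMIs in stroma and 8124 and 4610 in blood. At an equal depth of 1000 UMIs per cell the shares were 25.8% and 22.6% in stroma and 1.05% and 1.07% in blood. B cell-like barcodes had 6.31% and 5.71% with a UMI at median depths of 3851 and 4032. A stromal cell held a median of 2 detected Hox genes in either library, and the most in 1 stromal cell were 12 and 8.

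The test of stroma against blood was edgeR's quasi-likelihood test on UMIs summed per library and compartment, adjusted by the Benjamini-Hochberg method over 14343 genes. The filter on low counts kept 22 of the 39 Hox genes (8 Hoxa, 3 Hoxb, 7 Hoxc and 4 Hoxd). Of the 22, 20 were higher in stroma, where 28% of all genes tested were higher. None was lower, where 21.3% of all genes were; at an unadjusted p under 0.05 the count of lower genes was also 0, and DESeq2 called 0 of 29 lower and 25 higher. Only Hoxa7, Hoxa9 and Hoxb4 had blood levels high enough to pass the filter on blood alone. The others, such as Hoxc8 with no blood UMI, passed through their stromal sums, which favored a higher call. The counts of 20 and 0 therefore do not stand as support, and the 22 do not stand for the other 17. Without the filter 38 genes were tested, of which 30 were higher and 0 lower against 21.5% and 14.3% of all genes. The 30 include genes such as Hoxb6 and Hoxc12, each with 1 and 2 stromal UMIs and 0 in blood. Such genes could not be called lower, so these counts do not stand as support either.

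**Figure D1:**
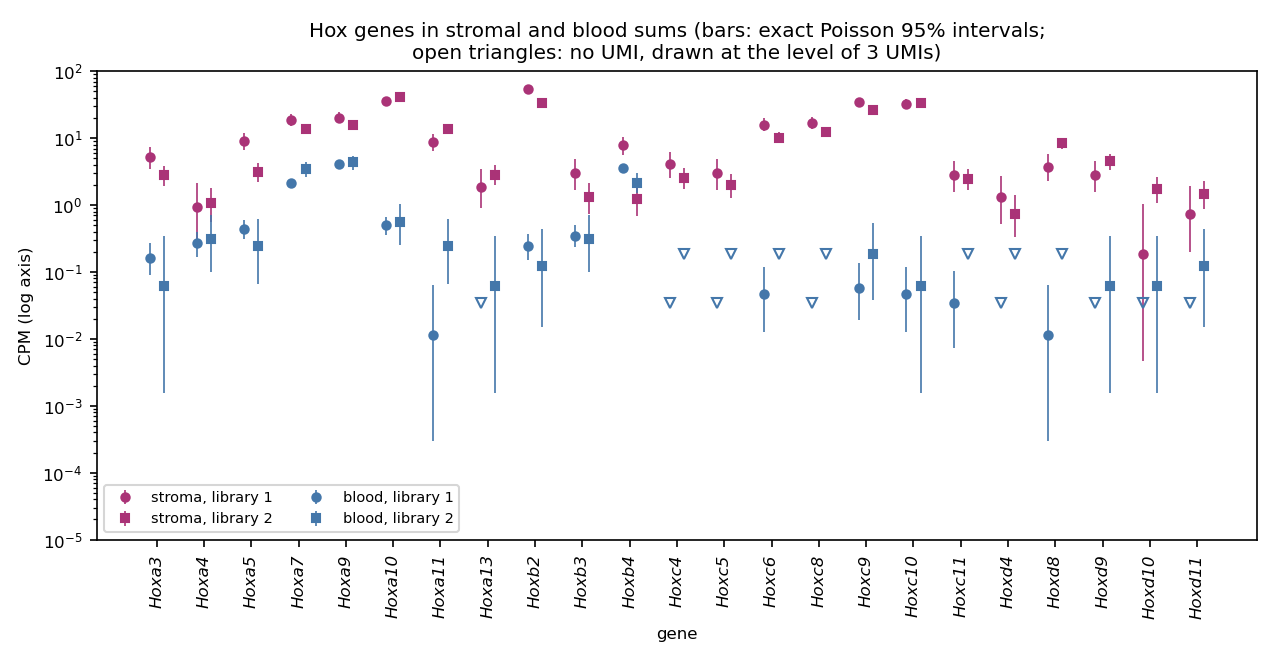
CPM on a log axis of the Hox genes with at least 20 UMIs, in the summed stromal (purple) and blood (blue) barcodes of library 1 (circles) and library 2 (squares), with exact Poisson 95% intervals. Open triangles mark sums with no UMI, drawn at the level of 3 UMIs. Stromal points stand above blood points for each gene but Hoxb4, whose library 2 order is the opposite, and the Hoxc genes are at or near 0 in blood.

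All 7 Hoxc genes tested were higher in stroma, where 28% of all genes tested were. Each had 5 or fewer UMIs in either blood sum and passed the filter on low counts through stroma. The filter thus favored higher calls, and the count of 7 does not stand as support. Hoxc10, a limb-level group 10 gene, was at 32.9 and 33.5 CPM in stroma and at 0.0465 and 0.0613 CPM in blood (177 and 409 against 4 and 1 UMIs), a log2 difference of 9.19 (SE 0.45, adjusted p = 0.000248). Hoxc9 was at 35.1 and 26.5 CPM in stroma against 0.0581 and 0.184 in blood (log2 difference 8.28, SE 0.63, adjusted p = 0.000346). Both genes were high in both stromal sums and rested on 5 or fewer UMIs in each blood sum. Hoxc8 gave 91 and 151 stromal UMIs and no blood UMI, so its stromal level was at least 485-fold and 67.2-fold higher in libraries 1 and 2, counted against 3 UMIs per library. Hoxc4 and Hoxc5, also at 0 in blood, were at least 117-fold and 13.8-fold and at least 85.2-fold and 10.7-fold higher. Hoxc6 had 86 and 125 UMIs in stroma against 4 and 0, and Hoxc11 had 15 and 30 against 3 and 0. Exons of Hoxc5 and Hoxc10 overlap on the same strand, so molecules counted for either are uncertain.

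Hoxb2 and Hoxa10 were also far higher in stroma. Hoxb2, known for its part in the hindbrain and its nerves, was at 54.2 and 33.4 CPM in stroma and at 0.244 and 0.123 CPM in blood, 222 times [143 to 364] and 272 times [74.9 to 2257] higher (log2 difference 7.64, SE 0.55, adjusted p = 0.000366). Hoxa10, which acts in the upper limb skeleton, was at 36.2 and 40.6 CPM against 0.4995 and 0.552 (72.5 times [51.9 to 103] and 73.6 times [38.5 to 162]). Its log2 difference was 6.15 (SE 0.39, adjusted p = 0.000286). For Hoxa10 the ratio was close in the 2 libraries, and for Hoxb2 it was high in both with a wide interval in library 2. Hoxa11, needed for the middle limb segment, had 47 and 169 stromal UMIs and 1 and 4 in blood (log2 difference 7.25, adjusted p = 0.00288). Hoxb2, Hoxa10 and Hoxa11 all passed the filter on low counts through stroma.

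The genes that blood also used differed less. Hoxa9, a self-renewal factor of blood progenitors, was at 20.2 and 15.9 CPM in stroma and at 4.16 and 4.35 in blood, 4.87 times [3.89 to 6.05] and 3.65 times [2.77 to 4.86] higher (log2 difference 2.04, SE 0.36, adjusted p = 0.00515). Hoxa7 was at 18.7 and 13.8 CPM against 2.14 and 3.43 (8.77 times [6.81 to 11.2] and 4.03 times [2.96 to 5.56], adjusted p = 0.0041). Hoxa5 was at 9.10 and 3.11 CPM against 0.441 and 0.245, and Hoxa3 at 5.198 and 2.78 against 0.163 and 0.0613. Each of these stood higher in the stromal sum than in the blood sum in both libraries, and Hoxa5 and Hoxa3 passed the filter on low counts through stroma. The blood sum is an average over unlike classes, and its hematopoietic progenitor-like cells held Hoxa9 above the stromal level in both libraries. Hoxa4 gave 5 and 13 stromal and 23 and 5 blood UMIs, a CPM ratio of 3.47 in both, and missed the threshold (log2 difference 1.78, adjusted p = 0.0508), which it passed in 6 of 13 alternative fits.

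Hoxb4, which expands blood stem cells when overexpressed, was the exception. It was at 7.80 and 1.23 CPM in stroma and at 3.57 and 2.15 CPM in blood, so that stroma was 2.19 times [1.54 to 3.03] higher in library 1 and at 0.572 times [0.290 to 1.08] the blood level in library 2. The 2 libraries pointed in opposite directions and the log2 difference of 0.51 (SE 0.84) did not pass (adjusted p = 0.643). Its neighbor Hoxb3 was at 2.97 and 1.31 CPM in stroma against 0.348 and 0.306 in blood and passed (log2 difference 2.54, adjusted p = 0.0200). With every class given equal weight in 1 model, however, Hoxb3 had a difference of -0.50 (adjusted p = 0.722), and Hoxa13, Hoxd9 and Hoxd11 also lost their calls.

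Hoxd genes were low in stroma and nearly silent in blood. Hoxd8 was at 3.71 and 8.43 CPM in stroma with 1 blood UMI in all (log2 difference 8.75, SE 0.94, adjusted p = 0.000845), and Hoxd9 at 2.78 and 4.50 CPM with 0 and 1 (adjusted p = 0.00347). Hoxd4 gave 7 and 9 stromal UMIs and none in blood, and Hoxd11 gave 4 and 18 against 0 and 2 (adjusted p = 0.00654 and 0.0219). These 4 Hoxd genes also passed the filter on low counts through stroma, which favored a higher call, so their calls do not stand as support. Hoxd10 gave 1 and 21 against 0 and 1 and did not pass the filter on low counts. Hoxa13 gave 10 and 35 against 0 and 1 (adjusted p = 0.00501) and also passed that filter through stroma. Exons of Hoxd4 and Hoxd3 overlap on the same strand, so the split of molecules between them is uncertain. In the plot of CPM in stroma and blood Hoxb4 is the gene whose order differs between the libraries.

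**Figure D2:**
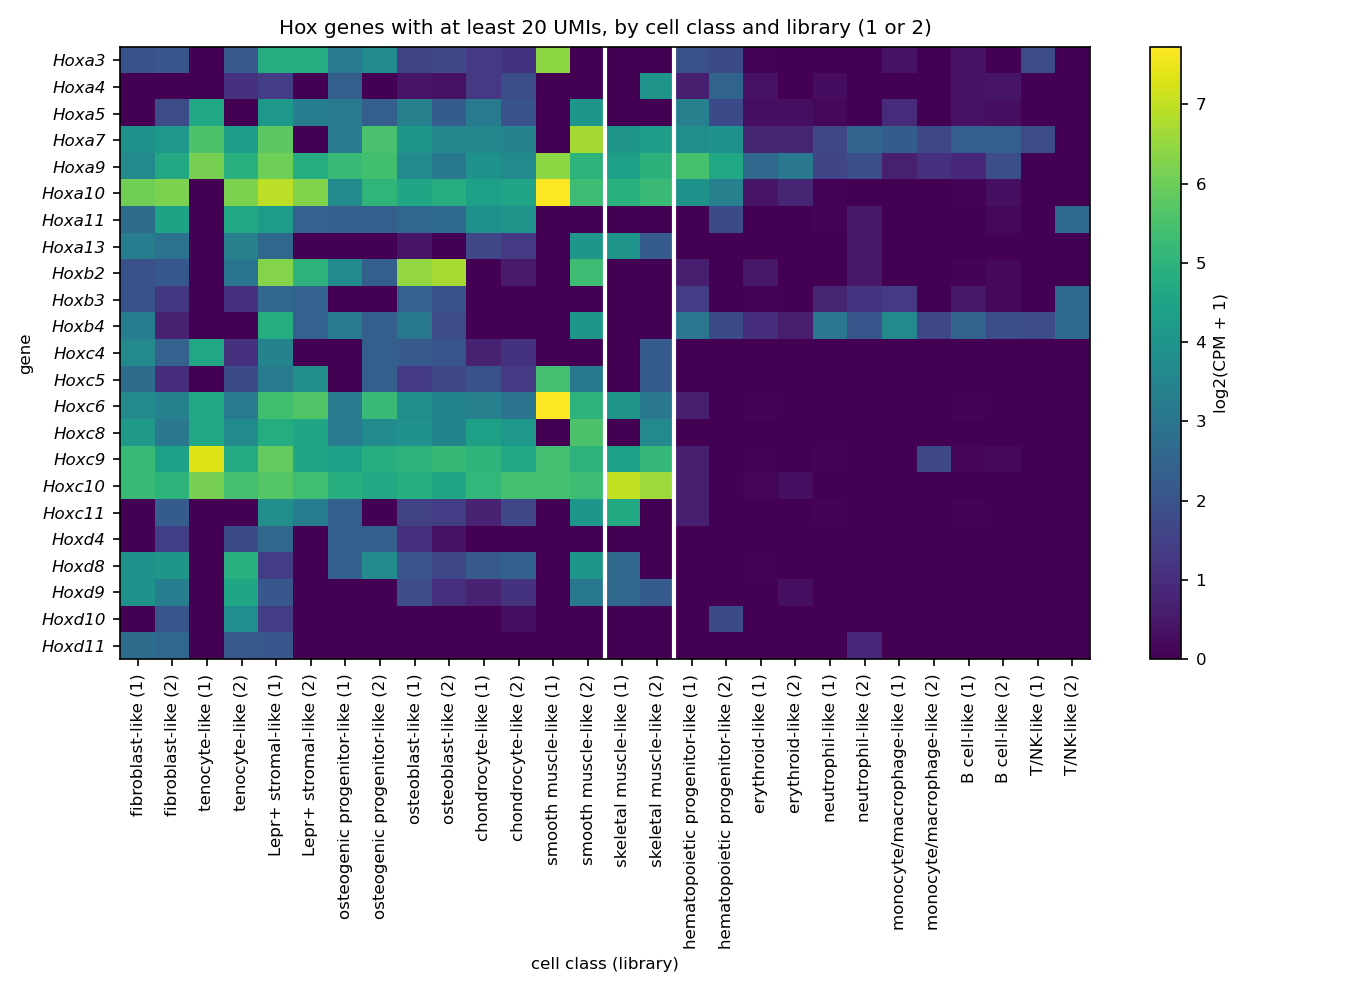
Heatmap of log2(CPM + 1) for the Hox genes with at least 20 UMIs (rows) in each named class and library (columns). White lines part the stromal classes, skeletal muscle-like barcodes and blood classes. Hoxb2 is bright in osteoblast-like and Lepr+ stromal-like columns and dark in chondrocyte-like ones, Hoxa9 and Hoxa7 run across stroma and hematopoietic progenitors, and the Hoxc and Hoxd rows are dark in blood; columns of tenocyte-like and smooth muscle-like cells in library 1 rest on 3 and 4 barcodes.

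The stromal classes were not alike in the Hox genes they used. A single edgeR model over the class sums of the 5 classes with at least 10 barcodes in each library (fibroblast-like 29 and 316 barcodes, Lepr+ stromal-like 83 and 40, osteogenic progenitor-like 35 and 46, osteoblast-like 109 and 216, chondrocyte-like 94 and 194) set each class against the mean of the other 4. Of the fibroblast-like barcodes, 9 and 28 came from a mixed cluster in which general blood markers were found in 48.9% of cells on average. In the fibroblast-like cluster led by Mfap5 that share was 10.5%. Of 10692 genes tested, 11 were Hox genes. The calls were 7 higher and 2 lower over the 5 classes, with 11 Hox genes tested in each. By class, 6.57% to 12.5% of all genes were called higher and 1.61% to 10.1% lower. The counts are therefore not read as a trait of the Hox genes.

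Hoxb2 had the largest log2 differences of the 11 Hox genes tested between classes. It gave 241 and 377 UMIs in osteoblast-like cells (88.7 and 104 CPM), 47 and 7 in Lepr+ stromal-like cells (77.4 and 30.9 CPM), 3 and 1 in osteogenic progenitor-like cells (12.2 and 4.07 CPM), 1 and 10 in fibroblast-like cells (2.84 and 3.41 CPM), and 0 and 2 in chondrocyte-like cells (0 and 0.478 CPM). Osteoblast-like cells were high and chondrocyte-like cells at or near 0 in both libraries, with no overlap. Osteoblast-like cells were higher than the mean of the other classes by 4.74 on the log2 scale (SE 0.40, adjusted p = 5.74e-05), and this was the only Hox gene of the 11 called in them, where 6.57% of all genes were higher. None was lower there, with 3.41% of all genes lower, none at an unadjusted p under 0.05 and none by DESeq2. Chondrocyte-like cells were lower (log2 difference -5.08, SE 0.73, adjusted p = 0.000662). Hoxb2 passed the filter on low counts through other classes, which favored that lower call. Osteoblast-like and Lepr+ stromal-like cells were neighbors in this order and differed by a ratio of 1.15 [0.835 to 1.60] in library 1 and 3.36 [1.62 to 8.43] in library 2. These ratios are scaled by total UMIs and not by TMM. Total-UMI scaling put the median log2 difference of all genes at -0.49 in osteoblast-like and 0.49 in Lepr+ stromal-like cells, which lowers such a ratio.

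**Figure D3:**
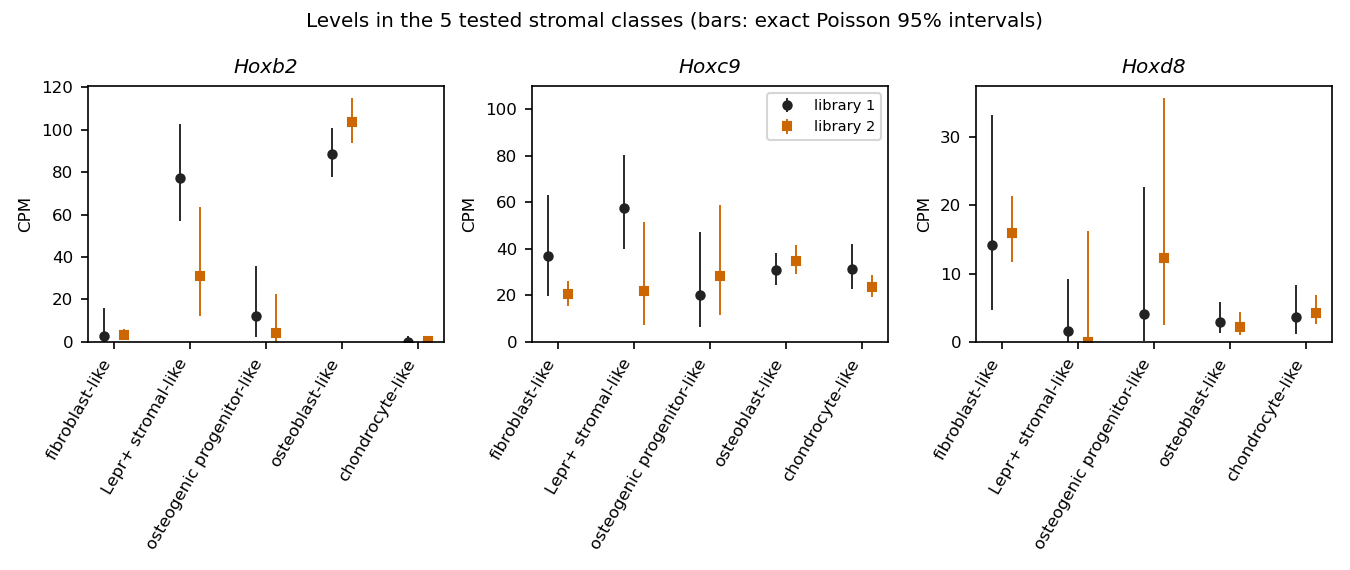
CPM of Hoxb2, Hoxc9 and Hoxd8 in the 5 tested stromal classes, library 1 (circles) and library 2 (squares), with exact Poisson 95% intervals. Hoxb2 is at 88.7 and 104 in osteoblast-like and at 0 and 0.478 in chondrocyte-like cells, Hoxc9 has overlapping intervals across most classes, and Hoxd8 is at 14.2 and 16.0 in fibroblast-like cells.

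Within osteoblast-like cells Hoxb2 was gathered in a part of the cells. It was detected in 46 of 109 barcodes in library 1 and 79 of 216 in library 2, with a mean of 5.24 and 4.77 UMIs per positive cell and up to 18 and 25 in 1 cell. Had the same UMIs been spread over the cells by depth, 79.7% and 67.3% of cells would have held 1, against 42.2% and 36.6% observed. Hoxc10 in the same cells was close to such a spread, with 46.8% observed and 46.5% when spread in library 1 and 25.9% and 28.8% in library 2. The 3 osteoblast-like clusters each held Hoxb2, at 87.7 and 102, 40.1 and 90.1, and 103 and 116 CPM, so the gene was not set by a single cluster.

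The Hoxb neighbors of Hoxb2 were found mostly in cells with a Hoxb2 UMI. Hoxb3 was found in 10 of 46 Hoxb2-positive and 0 of 63 Hoxb2-negative osteoblast-like cells in library 1, and in 8 of 79 and 0 of 137 in library 2. Hoxb4 was found in 12 of 46 and 1 of 63, and in 6 of 79 and 0 of 137. Counts of 0 of 63 and 0 of 137 allow shares of up to 5.69% and 2.66% (exact binomial). Genes of other clusters did not split in this way in library 1, where Hoxa10 was in 21 of 46 and 26 of 63, Hoxc9 in 20 of 46 and 31 of 63, and Hoxa9 in 10 of 46 and 12 of 63. Median depth moved with Hoxb2 detection (28442 against 26546 UMIs in library 1 and 20567 against 10237 in library 2), and in library 2 Hoxa10 (29 of 79 against 32 of 137) and Hoxc9 (37 of 79 against 39 of 137) were also more often seen in Hoxb2-positive cells. The part of depth in these shares was not tested. In Lepr+ stromal-like cells of library 1, Hoxb4 was in 7 of 23 Hoxb2-positive and 2 of 60 Hoxb2-negative cells.

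**Figure D4:**
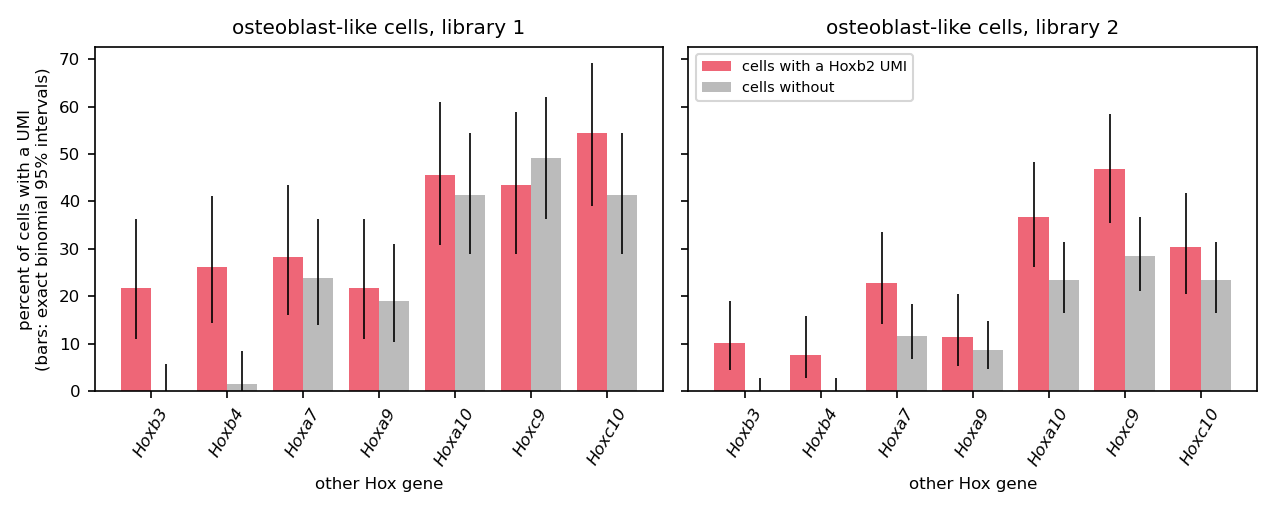
Percent of osteoblast-like cells with a UMI of another Hox gene among cells with (red) and without (gray) a Hoxb2 UMI, in library 1 (46 and 63 cells) and library 2 (79 and 137 cells), with exact binomial 95% intervals. Hoxb3 and Hoxb4 bars are found almost wholly on the red side, at 21.7% and 26.1% in library 1 and 10.1% and 7.59% in library 2, and the Hoxa and Hoxc bars stand on both sides.

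Lepr+ stromal-like cells, the marrow-type stroma that supports blood stem cells, had a Hox sum of 662 CPM [599 to 730] and 339 CPM [268 to 424], the highest of the 5 classes by total-UMI scaling, although in library 2 it overlapped the osteogenic progenitor-like cells (301 CPM [236 to 378]). Against TMM, that scaling raised all genes of the Lepr+ stromal-like cells (median log2 difference 0.49) and lowered those of osteoblast-like and chondrocyte-like cells (-0.49 and -0.65), so the order of the sums depends on it. Hoxa3 was at 26.3 and 26.5 CPM there, against 1.19 to 12.2 CPM in the other 4 classes, and was higher by 2.62 on the log2 scale (SE 0.42, adjusted p = 0.00319). Hoxa10 reached 123 and 74.9 CPM (log2 difference 1.27, SE 0.31, adjusted p = 0.0308), and Hoxb2 was higher as well (2.80, SE 0.44, adjusted p = 0.00245). These 3 of 11 higher genes compare with 6.58% of all genes. The Hoxa10 call was lost under DESeq2 and at both other clustering resolutions. Against fibroblast-like cells the Hoxa10 ratio was 1.89 [1.17 to 3.16] in library 1 and 1.03 [0.588 to 1.69] in library 2. Hoxa3 rested on 16 and 6 UMIs, and its ratio to osteogenic progenitor-like cells was 3.24 [0.762 to 29.0] and 2.17 [0.463 to 13.4]. Hoxa3 also passed the filter on low counts through the Lepr+ stromal-like sums, which favored a higher call, so its call does not stand as support. None of the 11 was lower, where 1.61% of all genes were, with 1 at an unadjusted p under 0.05 and none by DESeq2. Hoxa7 gave 33 UMIs in library 1 and none in library 2 (54.3 CPM and 0), so its level there was not settled.

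Chondrocyte-like cells used Hoxc and Hoxa genes and nearly no Hoxb. Of their Hox UMIs 56.3% and 56.0% were Hoxc, 40.8% and 40.0% Hoxa, and 1 of 245 and 3 of 705 Hoxb. Hoxc10 was their most counted Hox gene at 33.6 and 42.8 CPM and Hoxc9 followed at 31.5 and 23.6 CPM. Hoxc10 (log2 difference 0.84, adjusted p = 0.0322) and Hoxa11 (13.6 and 15.3 CPM, 1.39, adjusted p = 0.0487) were called higher, with 12.5% of all genes higher. The Hoxc10 call held in 5 of 12 alternative fits and the Hoxa11 call in 2 of 12. Library 1 alone gave -0.08 for Hoxc10, but by total-UMI scaling and not TMM. Total-UMI scaling moved the median over all genes to -0.65 in these cells, so -0.08 and 0.84 are on different scales. By total UMIs the Hoxa11 ratio to Lepr+ stromal-like cells was 0.751 [0.340 to 1.75] in library 1 and 3.47 [0.600 to 139] in library 2. To fibroblast-like cells it was 2.39 [0.577 to 21.2] and 0.712 [0.495 to 1.03]. The Hoxc10 ratios were 0.659 [0.410 to 1.07] and 1.08 [0.555 to 2.40] to the former and 0.910 [0.484 to 1.83] and 1.38 [1.07 to 1.80] to the latter. Hoxb2 and Hoxa3 (1.43 and 1.19 CPM, -1.73, adjusted p = 0.0365) were lower, with 10.1% of all genes lower, and the Hoxa3 call was lost under DESeq2, without the filter, without integration and without a mixed fibroblast cluster. Both genes passed the filter on low counts through other classes, Hoxa3 through Lepr+ stromal-like cells, which favored a lower call here. Hoxc8, at 20.05 and 16.2 CPM, had an adjusted p of 0.0507 and passed when the library was a block (0.0295).

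Chondrocyte-like cells fell into 2 clusters that differed in Hox level. The cluster led by Col9a3, Cnmd and Col2a1, genes of resting and growing cartilage, held Hoxc10 at 42.9 and 46.8 CPM, Hoxc8 at 29.7 and 17.6 CPM and Hoxa11 at 19.8 and 16.5 CPM. The cluster led by Col10a1, the collagen of hypertrophic cartilage, held Hoxc10 at 16.4 and 16.2 CPM, Hoxc8 at 2.05 and 7.19 CPM and Hoxa11 at 2.05 and 7.19 CPM. All 3 genes were lower in the Col10a1 cluster in both libraries, a description with no test. The 10 genes that led the Col10a1 cluster included EGFP, which was found only in library 2, and its median depth was 6138 and 6198 UMIs against 34081 and 30323 in the other cluster.

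Fibroblast-like and tenocyte-like cells, which make the fibrous sheath and tendon attachments, drew a larger share of their Hox UMIs from Hoxd than osteoblast-like and chondrocyte-like cells did. This is described here without a test. Hoxd took 12.1% and 13.04% of Hox UMIs in fibroblast-like cells and 21.6% in the 105 tenocyte-like barcodes of library 2, against 2.43% and 1.38% in osteoblast-like and 2.45% and 3.55% in chondrocyte-like cells. Hoxd8 was at 14.2 and 16.0 CPM in fibroblast-like cells and was higher by 2.10 on the log2 scale (SE 0.49, adjusted p = 0.0164), the only Hox gene higher there, where 8.88% of all genes were. That call was lost under DESeq2 and at resolution 1.2, and library 1 gave 5 UMIs. Hoxd8 also passed the filter on low counts through the fibroblast-like sums, which favored a higher call, so the call does not stand as support. Osteogenic progenitor-like cells held 1 and 3 Hoxd8 UMIs, too few to rank them against fibroblast-like cells. None of the 11 was lower in fibroblast-like cells, with 2.46% of all genes lower, 1 at an unadjusted p under 0.05 and none by DESeq2. Hoxa10 led the class at 65.4 and 72.9 CPM (log2 difference 0.91, adjusted p = 0.0927). Hoxd10 had 9 fibroblast-like and 11 tenocyte-like UMIs of its 21 stromal UMIs in library 2, and Hoxd11 had 15 and 3 of 18. In the tenocyte-like barcodes of library 2 Hoxa10 was at 73.2 CPM, Hoxd8 at 29.1, Hoxd9 at 22.1 and Hoxd10 at 12.8 CPM. Tenocyte-like cells gave 3 barcodes in library 1 and smooth muscle-like cells 4 and 20, so these classes had no test.

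Osteogenic progenitor-like cells had no Hox gene called in either direction among the 11 tested, against 7.31% of all genes higher and 3.25% lower. At an unadjusted p under 0.05 there were 0 higher and 3 lower, and DESeq2 called none of 21. These cells held 5 of the 8 markers of their list, fewer than the osteoblast-like clusters (7, 8 and 7) and the Lepr+ stromal-like cluster (7). Median depth was 5387 and 2946 UMIs, and the name does not place these cells at a stage before osteoblast-like cells. Their 49 and 74 Hox UMIs were led by Hoxa9 (36.6 and 40.7 CPM), Hoxc10 (28.5 and 24.4 CPM) and Hoxc9 (20.3 and 28.5 CPM). Hoxa10 had a log2 difference of -1.36 with an adjusted p of 0.057, and passed with the library as a block (-1.38, adjusted p = 0.0441). Hoxb2 in these cells depended on how they were clustered: its difference was -0.56 (adjusted p = 0.671), 2.23 (adjusted p = 0.0202) when the libraries were merged without integration, and -4.10 (adjusted p = 0.0235) at resolution 0.4.

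**Figure D5:**
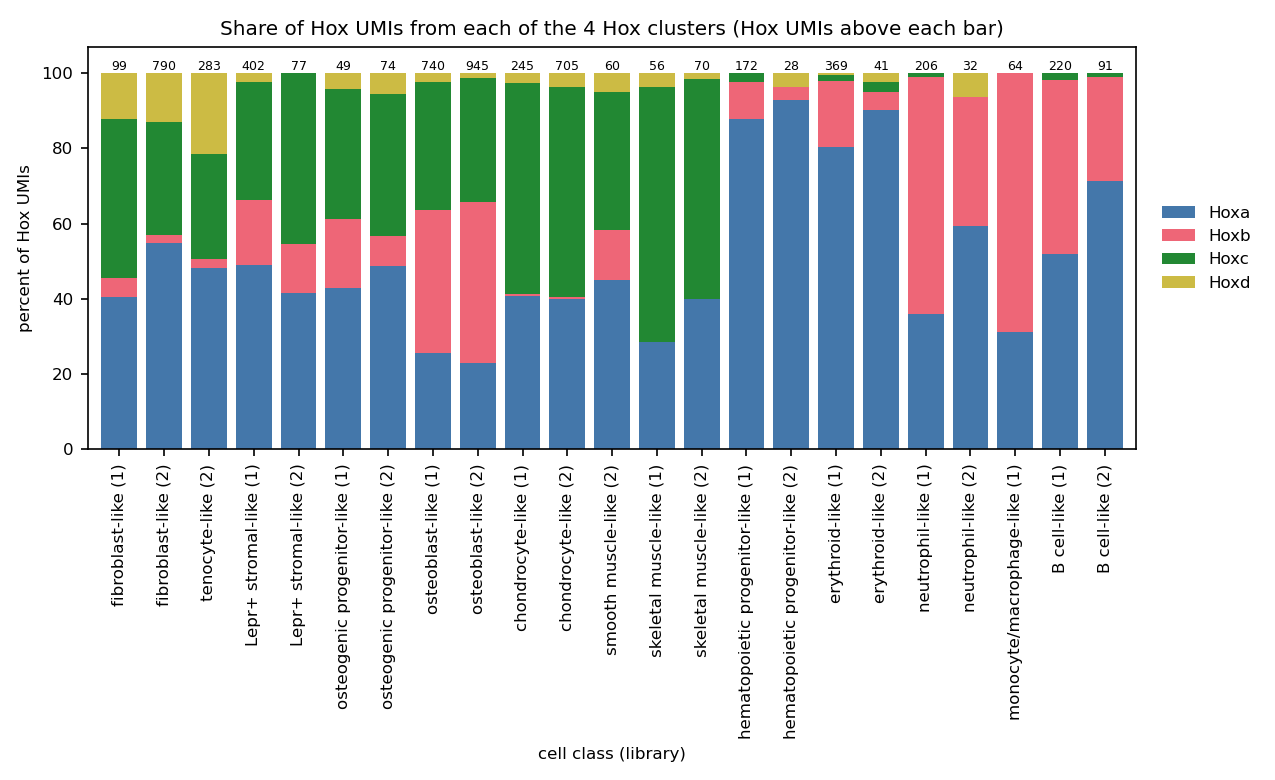
Stacked bars of the percent of Hox UMIs from the Hoxa (blue), Hoxb (red), Hoxc (green) and Hoxd (yellow) clusters, for each class and library with at least 20 Hox UMIs, with the number of Hox UMIs above each bar. Hoxc is a large part of each stromal bar and at most 2.44% of the blood bars, Hoxb is large in osteoblast-like cells and absent or nearly so in chondrocyte-like and skeletal muscle-like cells, and Hoxd is largest in tenocyte-like cells.

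Skeletal muscle-like barcodes and 1 unnamed group stood outside the tested stroma. The 71 and 63 skeletal muscle-like barcodes held Hoxc10 at 129 and 94.6 CPM, 26 of 56 and 25 of 70 Hox UMIs, and no Hoxb UMI in either library. The unnamed cluster, led by genes such as Ddit4l and Tcim in 17 and 47 barcodes, had Col10a1 among its 10 leading genes too. A median of 4 and 5 Hox genes was detected per cell, with up to 14 in 1 cell. The cluster carried 455 CPM [390 to 527] and 468 CPM [429 to 510] of Hox UMIs. It held Hoxa7 at 62.4 and 61.7 CPM, Hoxc9 at 83.2 and 76.7 CPM, Hoxa9 at 67.6 and 50.3 CPM and Hoxc6 at 54.6 and 46.7 CPM, and again no Hoxb UMI among 175 and 531. Hoxc10 there rested on 5 UMIs in library 1 and 68 in library 2, and its level differed more between the libraries than those of Hoxa7 and Hoxc9. Median depth was 21816 and 25290 UMIs, and no name was given because it held 6 of 8 osteogenic progenitor and 8 of 11 chondrocyte markers, while another list had more markers than the former among its 10 leading genes. A second unnamed cluster of 77 barcodes, found only in library 2, was led among Hox genes by Hoxa10 (71.9 CPM), Hoxc10 (62.2 CPM) and Hoxc9 (46.3 CPM).

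Among blood classes the hematopoietic progenitor-like cells carried the most Hox UMIs, 95.01 CPM [81.3 to 110] and 65.0 CPM [43.2 to 94.0] in 90 and 29 barcodes, of which Hoxa took 87.8% and 92.9%. This class held 7 of 9 progenitor markers, Gata2 and Myct1 among them, but was led by Mcpt8, Ctla2a and Cpa3, and Mcpt8 and Cpa3 are genes of basophils and mast cells. Among the other named blood classes the sums lay between 7.14 CPM, in T/NK-like cells of library 1, and 18.96 CPM, in monocyte/macrophage-like cells of library 1. Hoxa9 was at 43.1 and 23.2 CPM in the progenitor-like cells, 5.14 and 7.54 in erythroid-like, 2.05 and 2.58 in neutrophil-like, 0.814 and 2.63 in B cell-like and 0.593 and 1.09 in monocyte/macrophage-like cells. Progenitor-like cells were highest of these blood classes in both libraries, above the stromal sums of 20.2 and 15.9 CPM, and erythroid-like cells came next. Hoxa10 was at 14.4 and 9.29 CPM in the progenitor-like cells and at 0.754 CPM or less in the other named blood classes, and Hoxa5 was at 9.39 and 2.32 CPM. A UMI of any Hox gene was in 53.3% and 41.4% of the progenitor-like barcodes.

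Inside the larger blood classes the Hox UMIs were spread unevenly over clusters. Of the 222 and 30 Hoxa9 UMIs of erythroid-like cells, 179 and 27 were in the Car1-led cluster of 386 and 40 barcodes, at 7.99 and 11.9 CPM and a median depth of 59081 and 59045 UMIs. Hoxa7 was at 3.92 and 4.06 CPM in B cell-like cells, and at 5.15 and 12.4 CPM and 7.55 and 4.20 CPM in the 2 clusters led by Igll1, Vpreb1 or Dntt, genes of B cell precursors. In the neutrophil-like cluster led by Mpo and Elane, granule genes of promyelocytes, Hoxa7 was at 5.06 and 11.7 CPM and Hoxb4 at 11.9 and 4.25 CPM. Hoxb4 was the most counted Hox gene of monocyte/macrophage-like (11.6 and 2.19 CPM), neutrophil-like (7.21 and 3.01 CPM) and B cell-like cells (4.68 and 2.63 CPM) in library 1, and lower in library 2 in each. These are descriptions of levels with no test.

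The collagen I genes Col1a1 and Col1a2, which blood cells lack, were also found in blood droplets, at 86602 and 43530 CPM in stroma and 103 and 59.6 CPM in blood. Per 1000 collagen I UMIs the Hoxc genes gave 1.28 [1.18 to 1.39] and 2.08 [1.96 to 2.20] UMIs in stroma and 1.81 [1.03 to 2.93] and 4.12 [1.12 to 10.5] in blood, and the intervals of blood and stroma overlapped in both libraries. Hoxb2 gave 0.626 and 0.767 in stroma and 2.37 [1.47 to 3.63] and 2.06 [0.249 to 7.43] in blood. Hoxa9 gave 0.234 and 0.365 in stroma and 40.4 [36.3 to 44.8] and 73.0 [57.0 to 92.1] in blood, Hoxa7 gave 0.217 and 0.318 against 20.8 and 57.6, and Hoxb4 gave 0.0900 and 0.0282 against 34.7 and 36.0. Hoxa10 gave 0.418 and 0.933 against 4.86 and 9.26. The stromal ratios rest on osteoblast-like cells, which held 459214 of 466509 and 430691 of 531680 stromal collagen I UMIs, and they differed between stromal classes. Chondrocyte-like cells gave 60.8 and 9.80 UMIs of Hoxa9 and 45.6 and 8.20 of Hoxa7 per 1000, and Lepr+ stromal-like cells 29.5 and 1.56 of Hoxa9 and 24.9 and 0 of Hoxa7, so in library 1 some stromal classes were above blood. Among the 5 tested stromal classes the highest Hoxb4 ratio was 12.1, in Lepr+ stromal-like cells of library 1, against 34.7 and 36.0 in blood. The part of free stromal RNA in the blood values was not tested. The hematopoietic progenitor-like class of library 1 carried more collagen I than blood as a whole (1357 CPM, against 114 CPM in library 2), and per 1000 collagen I UMIs it gave 31.7 and 204 UMIs of Hoxa9 and 10.6 and 81.6 of Hoxa10.

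Partners and other patterning genes were read in the same stroma against blood fit. TALE cofactors (Pbx, Meis and Pknox, which bind DNA beside Hox proteins) were called in both directions. Of 9 tested, Meis2 (log2 difference 8.76, adjusted p = 0.000366), Meis3 (5.89, 0.000853) and Pknox2 (4.21, 0.0134) were higher in stroma, Pbx4 was lower (-2.82, 0.0143), and 5 did not pass. Of all genes tested 28% were higher and 21.3% lower, so these counts are not read as a trait of the cofactors. Meis2, Meis3 and Pknox2 passed the filter on low counts through stroma. The median log2 difference was 1.27 over the 9 TALE genes, 8.11 over the tested limb genes, 5.62 over the tested upstream genes, -0.81 over the chromatin genes and -0.01 over all genes tested. Meis1 was at 8.91 and 4.01 CPM in stroma and 2.71 and 1.84 in blood. It did not pass (adjusted p = 0.0785), though with the library as a block it did (0.0214).

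Of 14 limb patterning genes 10 were tested and all 10 were higher in stroma, where 28% of all genes were higher, and such genes as Tbx4 and Pitx1 were at or near 0 in blood and passed the filter on low counts through stroma. Tbx4 and Pitx1, which specify the hindlimb, gave 10 and 51 UMIs and 89 and 320 UMIs in stroma and 0 and 1 each in blood (log2 differences 7.61 and 10.39, adjusted p = 0.00469 and 0.00105). Tbx5, the forelimb gene, gave 5 and 7 stromal UMIs and none in blood, and did not pass the filter on low counts. The other 8 were Shox2 (8.60), Hand2 (9.99), Prrx1 (7.55), Prrx2 (9.28), Emx2 (7.45), Isl1 (4.76), Msx1 (7.32) and Gli3 (9.10), given as log2 differences. The 4 tested of 7 upstream genes were higher too, Gdf11 (2.28), Rarb (6.11), Rarg (5.12) and Cyp26b1 (7.51). Of 12 other homeobox genes 7 were tested, of which 6 were higher, Dlx5 (7.84), Dlx6 (11.06), Dlx3 (9.56) and Barx1 (10.76) among them, and Hhex (-4.69) was lower. With classes weighted equally in 1 model Tbx4, Hand2, Isl1, Rarb and Cyp26b1 lost their calls, as did Pbx4. Genes at or near 0 in blood passed the filter on low counts through stroma.

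Of 13 chromatin regulators of Hox loci tested, 5 were lower in stroma, where 21.3% of all genes were lower, and the other 8 did not pass. The 5 were a part of the Polycomb genes of the list, Ezh2 (log2 difference -3.59), Eed (-1.83), Suz12 (-2.31) and Cbx2 (-1.74), and the boundary factor Ctcf (-2.04). Cbx2 lost its call with classes weighted equally (0.47, adjusted p = 0.520). The other Polycomb genes of the list did not pass, and with classes weighted equally they were called in both directions. Ezh2 was at 23.8 and 18.3 CPM in stroma and 258 and 233 CPM in blood. With the library as a block Kmt2a and Kdm6a were also lower (adjusted p = 0.0211 and 0.015, against 0.118 and 0.054 without it).

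Antisense and noncoding genes of the clusters were counted apart. Hotairm1, a noncoding gene of the Hoxa cluster, gave 93 and 479 stromal UMIs and 30 and 12 in blood (17.3 and 39.2 against 0.348 and 0.736 CPM, log2 difference 5.79, adjusted p = 0.00112), and was at 67.6 and 160 CPM in the unnamed Ddit4l-led cluster. Hoxa11os gave 42 and 262 stromal UMIs against 3 and 0, Hoxb3os 40 and 25 against 8 and 0, and Hoxd3os1 14 and 108 against 0 and 1. Each was called higher (adjusted p = 0.000571, 0.0046 and 0.00384), where 28% of all genes tested were, although Hoxb3os lost its call with classes weighted equally. Hotairm1 and these genes passed the filter on low counts through stroma, so their calls do not stand as support. Hoxaas3 was at 1.30 and 2.13 CPM against 0.558 and 0.797 and did not pass (adjusted p = 0.086).

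RefSeq promoter windows of GRCm38.p6, from 250 bases before to 50 after a gene's start, were at hand for 22 of the 39 Hox genes, in 24 windows. They held a median of 14.5 CG dinucleotides against 7 over all 32851 windows, with 4 in the window of Hoxa9, 14 in that of Hoxb4 and 21 in 1 of those of Hoxa10. CCAAT was found on either strand in windows of 15 Hox genes, against 37.4% of all windows, and TATAAA in windows of 4, against 13.6%. Windows for Hoxb2 and Hoxc10 were not used here. These letters are descriptions of the windows and not sites of binding.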

How the data were processed

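Raw UMI counts per gene and barcode were deposited by the authors for 2 libraries made with the 10x 3′ v3.1 kit. Cell Ranger 6.1.2 and mm10 are named in the submitters' processing notes, while the study's methods name a human genome. The matrices were neither normalized nor pooled. Barcodes were kept at 500 genes and 500 UMIs or above and at 10% mitochondrial UMIs or below.

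Canonical correlation integration in Seurat 5.3.0, under R 4.3.3, joined the libraries on 3000 variable genes, from which Hox, TALE and limb genes were withheld, with 30 anchor dimensions, 15 principal components and resolution 0.8. Blood and other clusters were then clustered apart. Markers of a list counted as found at 1 log2 unit or more above all other barcodes and in 20% of a cluster's cells. A cluster took the name of the list with the largest share found, where at least 3 were found and no other list had more markers among its 10 leading genes, and ties went to the first list, a rule set after the clusters were seen. Doublets were not removed, since Scrublet (scanpy 1.11.5) called 2.33% of library 1 and 0.035% of library 2, too few in the latter to have worked. The members and gene lists were chosen with earlier results of these data known. Hox genes with at least 20 UMIs were named with values, and listed genes where they passed or were Tbx4, Pitx1, Tbx5 or Meis1. Some genes and sequences are not reported here.

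Sums of UMIs for each class in each library were tested with edgeR 4.0.16 (quasi-likelihood, TMM, filterByExpr, Benjamini-Hochberg at 0.05), which was tested on simulated data. Sums with the same replicate number come from the same library, and their deviations correlated at 0.111 to 0.329 over genes, so they are paired. DESeq2 1.42.0, other scalings, no filter, other resolutions, no integration, 5% mitochondrial UMIs, doublet removal, the library as a block, and each library alone were the alternatives. Library totals were 100808649 and 33306452 UMIs. Coordinates are those of GENCODE M21 on GRCm38. Proteins were not used here.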

Additional observations from a re-analysis of the deposited data

Results flagged for a closer look

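Hox UMIs were also present in the barcodes removed by the filters, which no comparison used. In library 1 the 3656 removed barcodes held 84 Hox UMIs (9.60 CPM, exact Poisson 95% interval 7.66 to 11.9). In library 2 the 766 removed barcodes held 73 (28.5 CPM, 22.3 to 35.8). These are signals in data that no comparison used, and no control is at hand for them.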

How the results depend on the processing

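Of 301 alternative fits of single Hox genes in stroma against blood, 291 kept direction and side of the threshold, 6 passed newly (all of Hoxa4) and 3 no longer passed. Hoxb3 reversed to -0.50 when class means were set against each other in 1 model. The 20 higher and 0 lower calls stayed within 1.5 times of these counts under each alternative. Of 624 fits between stromal classes, 576 kept their call, 21 passed newly and 26 were lost. The 7 higher calls fell to 3 under DESeq2 and to 3 at resolution 1.2, and the 2 lower calls became 5 at resolution 0.4 and 1 without a mixed fibroblast cluster of 37 barcodes, an alternative chosen after seeing the data, as was edgeR without its bias adjustment. Hoxb2 in osteogenic progenitor-like cells reversed to 2.23 without integration. The cause of these changes was not tested. Each library alone gives values and no test, scaled by total UMIs and not by TMM. These values kept the sign of 20 of 20 calls between stroma and blood and of 8 of 9 between classes. The other was Hoxc10 in chondrocyte-like cells, at -0.084 without replicate 2 and 0.53 without replicate 1. Total-UMI scaling lowers these cells, so neither value is on the scale of the fit.

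With the replicate block the calls were 20 higher and 0 lower in stroma against blood and 8 higher and 3 lower between classes. The block changed no Hox call other than Hoxc8 in chondrocyte-like and Hoxa10 in osteogenic progenitor-like cells. Scaling by total UMIs alone moved the median log2 difference of all genes to -0.65 in chondrocyte-like, -0.49 in osteoblast-like, 0.49 in Lepr+ stromal-like, 0.45 in osteogenic progenitor-like and 0.20 in fibroblast-like cells. It moved the share of higher among all calls from 55.3% to 18.9%, 65.8% to 31.2%, 80.3% to 93.6% and 69.3% to 89.1% in the first 4 of these. Shares of cells with a Hox UMI fell to 25.8% and 22.6% in stroma and 1.05% and 1.07% in blood at 1000 UMIs per cell. Lepr+ stromal-like and osteogenic progenitor-like cells could not be fitted at 5% mitochondrial UMIs, nor the former without integration.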
